A study of Mus musculus with 15 samples.

Results

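The genes described here are the T cell-recruiting chemokines of the CXCR3 and CXCR6 receptors and those receptors themselves, 6 genes in all: the ligands *Cxcl9*, *Cxcl10* and *Cxcl11* with their receptor *Cxcr3*, and the ligand *Cxcl16* with its receptor *Cxcr6*. They were chosen by name, for their known role as ligand and receptor, out of 18279 genes in the table. Earlier results of these data were known when they were chosen. All 6 had reads in every tumor and a mean normalized count of at least 10. Renca is a renal adenocarcinoma line of BALB/c mice. RNA was sequenced from 15 tumors that grew under the skin of female BALB/c mice, purchased at 4 to 6 weeks of age. Tumors were taken at 1000 mm3, on ulceration or when the mouse was in distress. The study reports that untreated knockout tumors grew more slowly than control tumors. The time from injection to collection is not given per tumor, and its part in the differences below was not tested. The control group held 5 tumors, and the *Pbrm1* knockout group held 10, of which 5 grew from clone 4 and 5 from clone 18. *Pbrm1* encodes a subunit of the PBAF chromatin remodeling complex. The source labels call the control cells parental, whereas the design text and the study's methods describe a control knockout line. Each knockout group came from a single clone, which had been derived by transient CRISPR/Cas9 plasmid transfection, puromycin selection and sorting of single cells, so that the clone and the lost gene cannot be told apart within a clone. Whether a mouse had received an antibody to PD-1 is not given in the sources used here.

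CXCL9, CXCL10 and CXCL11 are small secreted proteins that interferon gamma induces in macrophages, dendritic cells, endothelium and tumor cells. They bind CXCR3, a G protein-coupled receptor carried by activated CD8+ T cells, Th1 cells and NK cells, and they draw those cells into inflamed tissue. CXCL16 is made as a transmembrane protein on macrophages, dendritic cells and epithelium, and the proteases ADAM10 and ADAM17 release its soluble form. Its receptor CXCR6 marks tissue-resident and effector T cells, and NK and NKT cells.

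The files hold read counts divided by a size factor per tumor (normalized counts), behind which lie between 32924414 and 49099168 reads on genes per tumor. *Pbrm1* lay between 7451.5 and 9870.6 normalized counts in the control tumors and between 2483.8 and 3137.5 in the knockout tumors, which is the direction of the labels. All 9 renal epithelial markers checked (*Pax8*, *Cdh16*, *Krt8* and others) had reads. Skeletal muscle markers summed to 112 to 212 in the control tumors and 81.6 to 1591 in the knockout tumors, and were at 595 or more in tumors 9, 10, 11, 14 and 15. Of 6 skin epithelial markers, 2 had any read, with a summed level of at most 18.0. The part of muscle RNA in the values that follow was not tested.

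The 3 CXCR3 ligand genes lie side by side on chromosome 5, on the minus strand: *Cxcl9* from 92321347 to 92328079, *Cxcl10* from 92346638 to 92348889 and *Cxcl11* from 92359544 to 92365485 (GRCm38, GENCODE annotation). The annotation lists *Cxcl11* as a polymorphic pseudogene, because the gene is disrupted in the reference strain C57BL/6. *Cxcr3* lies on chromosome X from 101731535 to 101734269 (minus strand), *Cxcl16* on chromosome 11 from 70453983 to 70459984 (minus strand) and *Cxcr6* on chromosome 9 from 123806475 to 123811760 (plus strand). The promoter table from RefSeq (GRCm38.p6) matched 4 of the 6 genes, *Cxcl9*, *Cxcl10*, *Cxcr3* and *Cxcr6*. The 250 bases before the start site are shown for *Cxcl9* and *Cxcl10*, the ligands whose levels fell together. Both windows are on the minus strand and are written 5′ to 3′, at chr5:92328080-92328329 for *Cxcl9* and chr5:92348890-92349139 for *Cxcl10*. Capitals mark matches to the ISRE core (GAAANNGAA), the kappaB consensus and the AP-1 element (TGANTCA).
Cxcl9: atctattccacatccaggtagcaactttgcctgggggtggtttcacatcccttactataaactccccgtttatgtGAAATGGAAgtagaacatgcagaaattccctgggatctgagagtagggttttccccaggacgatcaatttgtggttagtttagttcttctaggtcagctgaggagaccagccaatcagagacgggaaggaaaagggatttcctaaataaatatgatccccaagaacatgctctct
Cxcl10: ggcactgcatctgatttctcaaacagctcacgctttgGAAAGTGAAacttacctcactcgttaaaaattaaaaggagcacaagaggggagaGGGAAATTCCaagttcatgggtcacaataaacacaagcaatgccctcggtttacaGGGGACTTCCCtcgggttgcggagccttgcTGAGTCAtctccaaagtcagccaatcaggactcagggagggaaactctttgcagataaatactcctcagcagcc
The ISRE core is the element that interferon regulatory factors recognize. *Cxcl9* held 1 match, GAAATGGAA, 175 to 167 bases before the start. *Cxcl10* held 1 match as well, GAAAGTGAA, 213 to 205 bases before the start. The kappaB matches of *Cxcl10*, the letters bound by NF-kappaB, stood at 159 to 150 bases and, as overlapping matches, at 104 to 94 bases before the start, and its AP-1 match TGAGTCA at 74 to 68 bases. Both strands were searched. In 27025 promoter windows of the same length, 7.16% held the ISRE core, 7.01% the kappaB consensus and 6.87% the AP-1 element. The windows of *Cxcr3* and *Cxcr6* held none of these, and none of the 4 windows held the interferon gamma-activated GAS element TTCNNNGAA (7.18% of all windows) or the T-box TCACACC (3.31%). A match is a run of letters, not a site, and the motifs were picked with these promoters in view.

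With both clones together, *Pbrm1* knockout tumors held less RNA of the ligands *Cxcl9* and *Cxcl10* and of both receptors than control tumors. *Cxcl11*, also induced by interferon gamma, and *Cxcl16* did not pass the test. The call of *Cxcr6* was lost without control tumor 1 or without control tumor 5. The question was whether loss of *Pbrm1* in the tumor cells went with a lower level of the signals that recruit T cells. On log2(normalized count + 1), with limma and p-values adjusted over the 18250 genes tested, 4 of the 6 genes were lower in knockout tumors and 0 higher. Both clones were pooled without a term for clone, and the tests count tumors as units. Their p-values measure the spread between tumors, not between clones. Over all genes tested, 12.9% were called lower and 9.23% higher. The median log2 difference of the 6 genes was -1.36, against -0.02 over all genes tested. No gene of the 6 had every knockout tumor under every control tumor, a separation that 4.87% of all genes tested showed. Control tumor 1 was the highest control tumor for each of the 6 genes, and without it 3 of the 6 genes were called lower (10.4% of all genes). In RNA from whole tumors, fewer cells of a type and less RNA per cell cannot be told apart. The labels give 1 sample per numbered tumor, and whether each came from a separate mouse is not stated sample by sample.

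**Figure D1:**
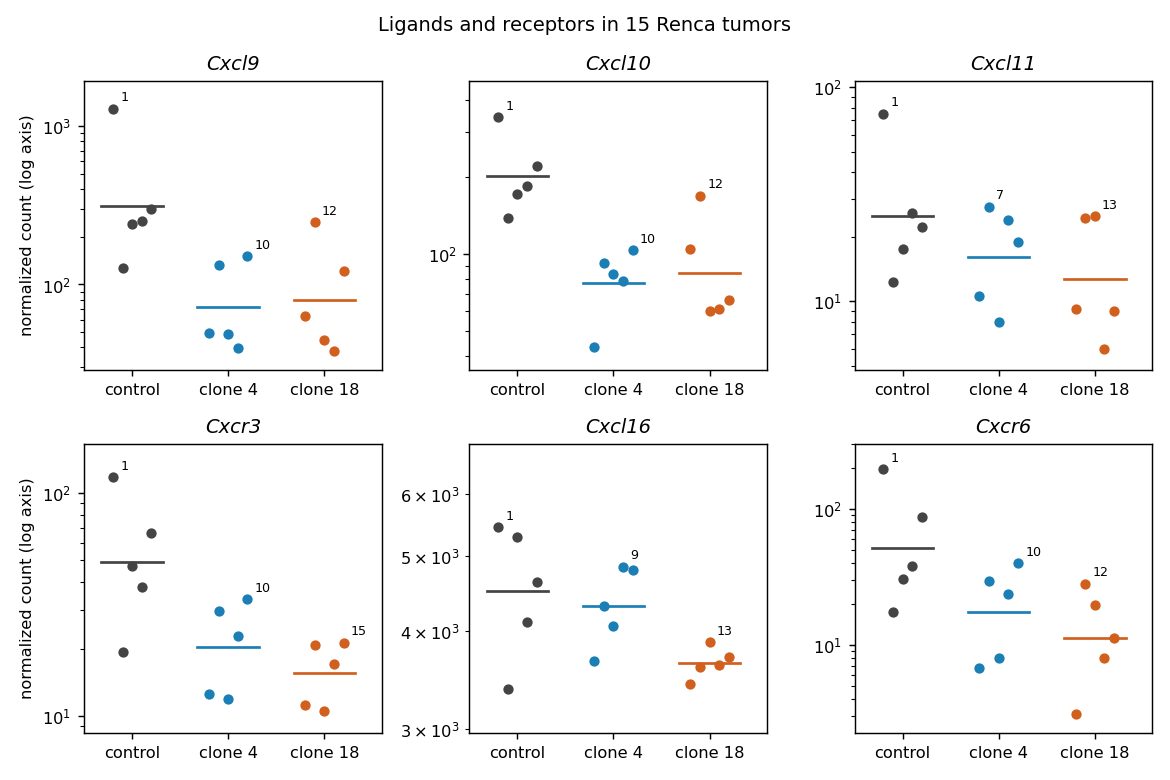
Normalized counts (log axis) of the 6 genes in each of the 15 tumors, by group. Points are tumors in the order of their numbers, lines are means on the log2 scale, and the number marks the highest tumor of each group. Control tumor 1 is the highest of the 15 tumors in all 6 panels, and the *Cxcl16* panel spans a much narrower range than the others.

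*Cxcl9* showed the largest difference of the 6 genes with both clones together. The control tumors had 1290.5, 127.7, 240.2, 251.0 and 301.3 normalized counts (tumors 1 to 5). Clone 4 tumors had 49.2, 132.8, 48.7, 39.8 and 151.5 (tumors 6 to 10) and clone 18 tumors 63.3, 248.5, 44.5, 38.1 and 122 (tumors 11 to 15). Control tumor 1 stood far above all others, and control tumor 2 was within the knockout range. Of the 10 knockout tumors, 7 were under every control tumor and all 10 were under the control mean. The knockout mean was 93.8 ± 69.1 (SD, n = 10) and the control mean 442 ± 478 (SD, n = 5), or 21.2% of control. The log2 difference was -2.03 (SE 0.50, 95% interval -3.08 to -0.98, adjusted p = 0.00733), a 4.08-fold lower level on that scale, and the two-sided exact permutation p was 0.00433. Without control tumor 1 the log2 difference was -1.52 (adjusted p = 0.0287).

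*Cxcl10*, the neighbor of *Cxcl9*, differed by less but more evenly from tumor to tumor. Its normalized counts were 343.5, 139.2, 172.5, 184.9 and 221 in the control tumors. They were 43.4, 92.7, 83.6, 78.5 and 103.6 in clone 4 tumors and 105.1, 169.8, 60.2, 61.1 and 66.1 in clone 18 tumors. Every clone 4 tumor was under every control tumor, and tumor 12 was the single clone 18 tumor that reached the control range. The means were 212 ± 79.0 (SD, n = 5) in control tumors and 86.4 ± 35.4 (SD, n = 10) in knockout tumors. The log2 difference of -1.31 (SE 0.27, 95% interval -1.87 to -0.75, adjusted p = 0.00183) was a 2.48-fold lower level, with an exact permutation p of 0.000666 where the smallest that 5 against 10 tumors allow is 0.000333. Leaving out any 1 tumor kept the adjusted p at or under 0.0092.

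*Cxcl11*, the ligand of highest affinity for CXCR3, was the least abundant of the 6 genes. The control tumors had 75.4, 12.3, 17.6, 25.8 and 22.2 normalized counts, from 14 to 65 reads. Clone 4 tumors had 10.6, 27.7, 8.0, 23.9 and 18.9, and clone 18 tumors 9.2, 24.6, 24.9, 6.0 and 9.0. Apart from control tumor 1 the groups lay over each other. The log2 difference was -0.76 (SE 0.43, 95% interval -1.66 to 0.13, adjusted p = 0.224, exact permutation p = 0.115). At 6 to 29 reads per knockout tumor, that interval leaves room for both a fall like that of *Cxcl10* and no difference.

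*Cxcr3*, the receptor of these ligands, was lower in knockout tumors. Its normalized counts were 118.4, 19.4, 47.3, 38.1 and 66.6 in the control tumors. They were 12.5, 29.6, 11.9, 22.8 and 33.4 in clone 4 tumors and 11.2, 20.9, 10.5, 17.0 and 21.3 in clone 18 tumors. The 4 control tumors other than tumor 2 were above every knockout tumor, and tumor 2 lay amid them. The means were 58.0 ± 37.8 (SD, n = 5) and 19.1 ± 7.98 (SD, n = 10). The log2 difference was -1.41 (SE 0.37, 95% interval -2.19 to -0.64, adjusted p = 0.0102), 2.66-fold lower, with an exact permutation p of 0.00333. Without control tumor 1 it was -1.10 (adjusted p = 0.0419).

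*Cxcl16* was by far the most abundant of the 6 genes and the steadiest. The control tumors had 5438.2, 3370.6, 5287.5, 4115.7 and 4624.7 normalized counts. Clone 4 tumors had 3662.5, 4303.9, 4062.3, 4841.3 and 4790, and clone 18 tumors 3419.7, 3602.6, 3870.6, 3625.5 and 3710.1. The lowest tumor of all was control tumor 2, and 0 of 10 knockout tumors were under every control tumor. The log2 difference was -0.18 (SE 0.11, 95% interval -0.41 to 0.04, adjusted p = 0.242, exact permutation p = 0.140). The interval bounds the difference to far less than the point values of the genes that fell.

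*Cxcr6*, the receptor of CXCL16 and a gene of few reads here, was lower in knockout tumors. Its normalized counts were 196.1, 17.6, 30.6, 38.1 and 87.8 in the control tumors. They were 6.8, 29.6, 8.0, 23.9 and 40.1 in clone 4 tumors and 3.1, 28.3, 19.6, 8.0 and 11.2 in clone 18 tumors. Control tumors 1 and 5 were above every knockout tumor, and control tumors 2, 3 and 4 lay within the knockout range. The means were 74.0 ± 73.2 (SD, n = 5) and 17.9 ± 12.3 (SD, n = 10). The log2 difference was -1.80 (SE 0.57, 95% interval -3.00 to -0.61, adjusted p = 0.0299), 3.49-fold lower, with an exact permutation p of 0.0150. The call rested on single tumors: the difference was -1.33 (adjusted p = 0.115) without control tumor 1 and -1.62 (adjusted p = 0.0853) without control tumor 5.

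Each clone was also set against the same 5 control tumors, so the comparisons are not independent. In clone 4 tumors 2 of the 6 genes were called lower, *Cxcl9* (log2 difference -2.10, adjusted p = 0.0199) and *Cxcl10* (-1.38, adjusted p = 0.00527), against 10.0% of all genes. *Cxcr3* was at -1.23 (adjusted p = 0.0554) and *Cxcr6* at -1.50 (adjusted p = 0.132). In clone 18 tumors 4 of the 6 were called lower, against 14.2% of all genes: *Cxcl9* (-1.95, adjusted p = 0.0219), *Cxcl10* (-1.25, adjusted p = 0.00734), *Cxcr3* (-1.60, adjusted p = 0.0107) and *Cxcr6* (-2.11, adjusted p = 0.0262). *Cxcl16* was at -0.30 in clone 18 tumors (adjusted p = 0.0525) and at -0.06 in clone 4 tumors (adjusted p = 0.768). Several of these calls turned on 1 tumor. Without control tumor 1, *Cxcl9* in clone 4 was at -1.59 (adjusted p = 0.0531), *Cxcl9* in clone 18 at -1.44 (adjusted p = 0.0629) and *Cxcr6* in clone 18 at -1.63 (adjusted p = 0.0785), which left 1 gene called in clone 4 and 2 in clone 18. The share of all genes called in each clone without control tumor 1 was not computed. The call of *Cxcl9* was also lost in clone 4 without tumor 8 (adjusted p = 0.0506) or 9 (adjusted p = 0.0550), and in clone 18 without tumor 13 (adjusted p = 0.0576) or 14 (adjusted p = 0.0604). That of *Cxcr6* in clone 18 was lost without control tumor 5 (adjusted p = 0.0648), tumor 11 (adjusted p = 0.0718) or tumor 14 (adjusted p = 0.0566). *Cxcr3* in clone 4 gained a call without control tumor 2 (adjusted p = 0.0152) or tumor 10 (adjusted p = 0.0392), and *Cxcl16* in clone 18 without control tumor 2 (adjusted p = 0.00480) or tumor 6 (adjusted p = 0.0464). Both also gained a call with edgeR on recovered reads (adjusted p = 0.0311 and 0.0455) and with DESeq2 (adjusted p = 0.0120 and 0.0239).

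Between the clones 0 of the 6 genes differed at an adjusted p under 0.05, against 4.62% of all genes. *Cxcl16* was at a log2 difference of -0.24 in clone 18 relative to clone 4 (95% interval -0.47 to -0.01) and was not called (adjusted p = 0.25). Its exact permutation p, not adjusted over genes, was 0.0238. The intervals for the other genes were wide, from -1.09 to 1.39 for *Cxcl9* and from -0.52 to 0.79 for *Cxcl10*. They were -1.26 to 0.53 for *Cxcr3* and -1.98 to 0.78 for *Cxcr6*, so a sizeable difference between clones was not detectable with 5 tumors each. edgeR's quasi-likelihood test on the reads recovered from the normalized counts called 0 of the 6 between the clones, as did DESeq2. The shares of all genes that these tools called were not computed.

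**Figure D2:**
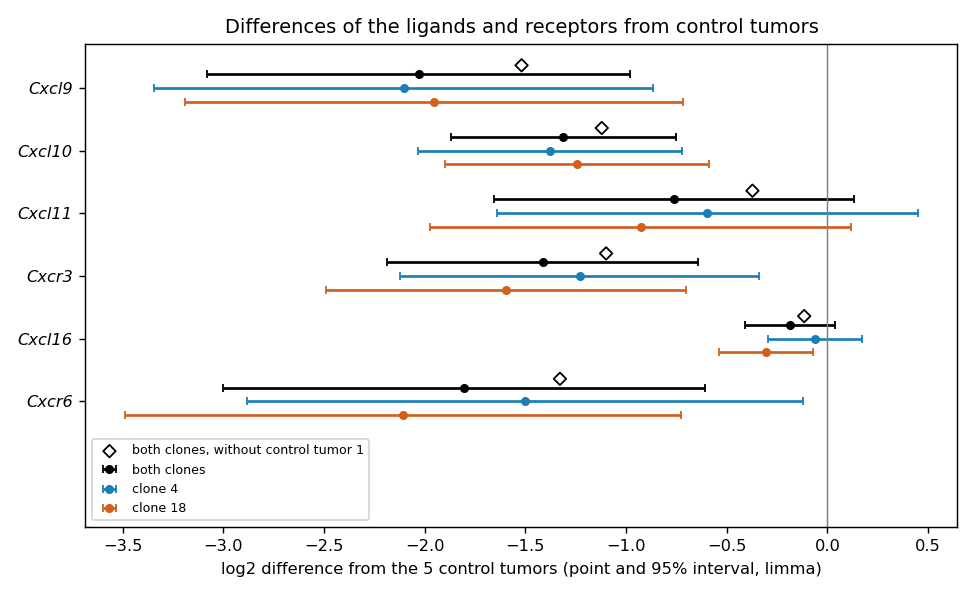
Log2 differences of the 6 genes from the control tumors with 95% intervals from limma, for both clones together (black), clone 4 (blue) and clone 18 (orange). Open diamonds give the difference for both clones without control tumor 1, which lies nearer to 0 for all 6 genes, -1.52 against -2.03 for *Cxcl9*.

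Levels of different genes were compared per kilobase of merged exons. In control tumors the order of mean normalized counts per kilobase was *Cxcl16* (1512 ± 283, SD, n = 5), *Cxcl9* (147 ± 159), *Cxcl10* (94.2 ± 35.1), *Cxcr6* (38.3 ± 37.9), *Cxcr3* (33.5 ± 21.9) and *Cxcl11* (8.08 ± 6.73). *Cxcl16* exceeded *Cxcl9* in 5 of 5 control tumors, by 4.21-fold in tumor 1 to 26.4-fold. *Cxcl9* exceeded *Cxcl10* in 4 of 5, with a median ratio of 1.02, and *Cxcr6* exceeded *Cxcr3* in 2 of 5. Neither of these neighbors in the order differed beyond its spread. In knockout tumors the levels per kilobase were 1320 ± 166 (SD, n = 10) for *Cxcl16*, 38.4 ± 15.7 for *Cxcl10*, 31.1 ± 22.9 for *Cxcl9*, 11.0 ± 4.61 for *Cxcr3*, 9.25 ± 6.37 for *Cxcr6* and 4.29 ± 2.24 for *Cxcl11*. *Cxcl10* exceeded *Cxcl9* in 6 of 10 knockout tumors and *Cxcr3* exceeded *Cxcr6* in 7 of 10, again within the spread. The share of this chemokine RNA that came from *Cxcl16* was large in every tumor, with 15.8 to 62.9 times as much *Cxcl16* as *Cxcl10* per kilobase in knockout tumors.

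Whether the genes fell by unequal amounts was tested on differences within each tumor, which need no scaling between tumors. There were 9 such differences, and their exact permutation p-values were adjusted over the 9. *Cxcl16* relative to *Cxcl9* was higher in knockout than in control tumors by 1.85 on the log2 scale (exact permutation p = 0.00433, adjusted 0.0130), and relative to *Cxcl10* by 1.13 (exact permutation p = 0.00200, adjusted 0.0130). On the second measure 9 of 10 knockout tumors were above every control tumor. *Cxcl9* relative to *Cxcl10* was lower by 0.72 in knockout tumors, which did not pass the exact permutation test (p = 0.0813, adjusted 0.146). The *Cxcl9* to *Cxcl10* difference was 1.91 in control tumor 1 and between -0.12 and 0.48 in the other control tumors.

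Macrophages are a known source of these ligands, and the ligands were set against the mean log2 level of 12 macrophage markers. These markers summed to 93227 to 121120 in control tumors and 68954 to 96235 in knockout tumors. Of the 12, 6 were called lower, against 12.9% of all genes tested, and 1 (*Cd14*) higher, against 9.23%. By direction alone 10 were lower and 2 higher, *Cd14* (log2 difference 0.42) and *Cd68* (0.12). Without control tumor 1, 4 were called lower, against 10.4% of all genes. The macrophage-defining *Csf1r* and *Adgre1* had reads in every tumor. *Cxcl9* relative to macrophage markers was lower in knockout tumors by 1.70 (control mean -4.01 ± 1.17, knockout mean -5.70 ± 0.90; exact permutation p = 0.00799, adjusted 0.0180). *Cxcl10* was lower by 0.98 (control mean -4.63 ± 0.44, knockout mean -5.62 ± 0.53; exact permutation p = 0.00366, adjusted 0.0130). The fall of both ligands was therefore larger than that of the mean of these 12 markers, and no other macrophage list was tried. Without control tumor 1 the differences were -1.22 and -0.82. For *Cxcl9* in clone 18 alone the difference was -1.56 (exact permutation p = 0.0635). *Cxcl11* differed by -0.43 (exact permutation p = 0.362) and *Cxcl16* by 0.15 (exact permutation p = 0.310) on this measure. The T cell genes, described next, had a median log2 difference of -1.41, and the ligands were not set against them.

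The receptors were set against 14 T cell genes, with a median log2 difference of -1.41. Of these, 8 were called lower in knockout tumors, against 12.9% of all genes tested, and 0 higher, against 9.23%. Without control tumor 1, 4 were called lower, against 10.4% of all genes. The summed level of the T cell genes was 742 to 2002 in control tumors and 586 to 991 in knockout tumors. The defining genes *Cd3e*, *Cd3g* and *Cd8a* had reads in every tumor, with *Cd3g* at 71.9 normalized counts on average in control tumors and 11.6 in knockout tumors. *Cxcr3* relative to the T cell genes differed by 0.05 (control mean 0.07 ± 0.35, knockout mean 0.13 ± 0.37; exact permutation p = 0.804). *Cxcr6* differed by -0.34 (control mean 0.15 ± 0.57, knockout mean -0.19 ± 0.91; exact permutation p = 0.474). No difference of the receptors relative to T cell genes was detectable. The choice of genes moved both values: *Lck* and *Cd247* of the list were at -0.06 and 0.13, unlike *Cd3g* at -2.30, and against the CD3 subunit genes *Cd3d*, *Cd3e* and *Cd3g* alone, chosen after this was seen, *Cxcr3* was at 0.51 (exact permutation p = 0.0896) and *Cxcr6* at 0.12 (exact permutation p = 0.795). Against 7 NK cell genes they were at -0.49 (exact permutation p = 0.0862) and -0.88 (exact permutation p = 0.0706).

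**Figure D3:**
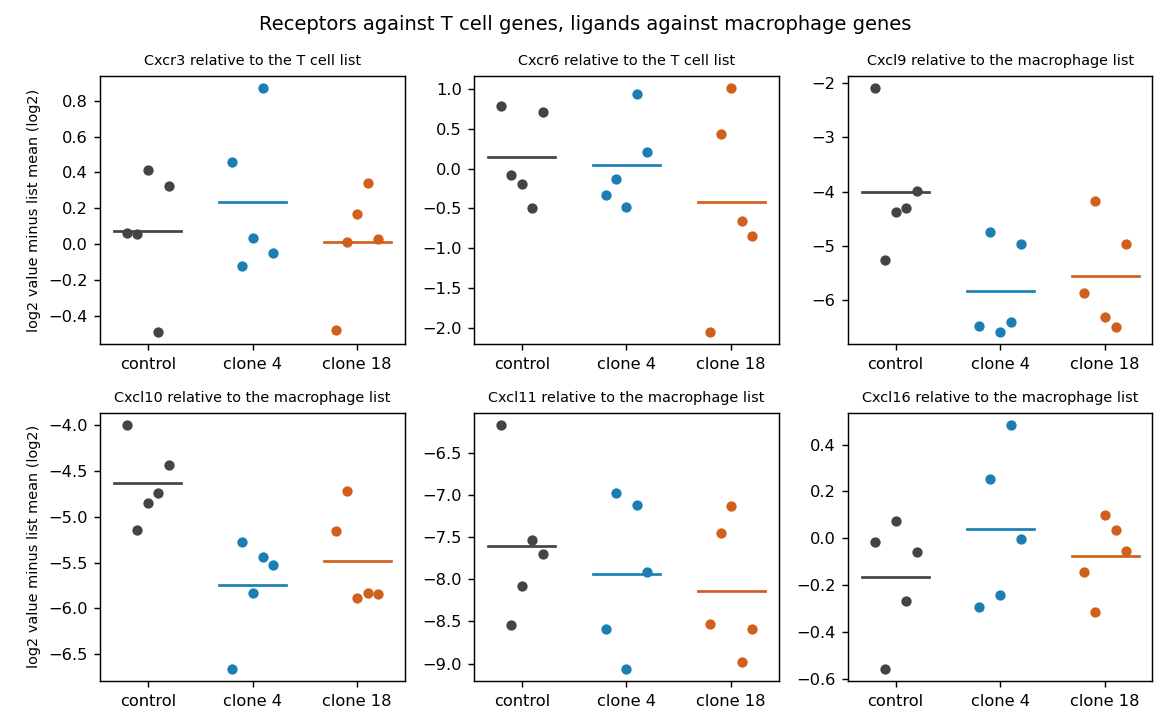
Receptors relative to the T cell list and ligands relative to the macrophage list, as the log2(normalized count + 1) of the gene minus the mean of the list in the same tumor. Points are the 15 tumors and lines are group means. *Cxcl9* and *Cxcl10* are lower in the knockout groups on this measure (by 1.70 and 0.98 for both clones), and *Cxcr3*, *Cxcr6*, *Cxcl11* and *Cxcl16* overlap widely with the control tumors.

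The other genes of the axis were picked by role. Of 27 listed, 25 were tested, and 3 were called lower and 1 higher in knockout tumors, against 12.9% and 9.23% of all genes tested, with a median log2 difference of -0.05. The count called lower was 1 without control tumor 1, against 10.4% of all genes. In clone 18 tumors 5 were called lower, against 14.2% of all genes tested. In the same tumors 2 were called higher, for which the share over all genes was not computed. Interferon gamma acts through the receptor chains IFNGR1 and IFNGR2, the kinases JAK1 and JAK2 and downstream factors such as IRF1, which drive the genes of all 3 CXCR3 ligands. *Ifngr2* was lower in knockout tumors, at 3522 to 3981 normalized counts in control and 2412 to 3522 in knockout tumors (log2 difference -0.35, adjusted p = 0.00195). It lies on chromosome 16, where the median log2 difference was -0.20 over 482 genes (those averaging 10 or more normalized counts). The part of that shift in the value of *Ifngr2* was not tested. *Ifngr1* (0.11, adjusted p = 0.371), *Jak1* (0.05, adjusted p = 0.622), *Jak2* (0.09, adjusted p = 0.297) and *Irf1* (0.02, adjusted p = 0.915) did not pass the test.

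*Adam17*, a protease that sheds CXCL16, was the single axis gene called higher in both clones together: 5108 to 6407 normalized counts in control and 5961 to 7960 in knockout tumors (log2 difference 0.33, adjusted p = 0.00412). *Adam10*, the other sheddase, was at -0.10 (adjusted p = 0.301). *Rac2*, a GTPase of migrating leukocytes, was lower (-0.46, adjusted p = 0.0419, and 0.140 without control tumor 1). In clone 18 tumors against control, *Runx3* (-0.64, adjusted p = 0.0087), a transcription factor of CD8+ T cells, and *Pik3cg* (-0.66, adjusted p = 0.00276), the lipid kinase downstream of chemokine receptors in leukocytes, were also called lower. *Ackr3*, a decoy receptor that binds CXCL11, was called higher there (0.90, adjusted p = 0.0316). In clone 4 tumors those 3 genes were at -0.26, -0.14 and 0.42 and were not called. The difference between clones passed the test for *Pik3cg* (-0.52, adjusted p = 0.0441), a call lost in 13 alternatives, among them leaving out any 1 of the 10 knockout tumors, and did not for *Runx3* (adjusted p = 0.229) or *Ackr3* (adjusted p = 0.413). *Tbx21*, which encodes the Th1 factor T-bet, had a mean of 12.9 in control and 4.85 in knockout tumors and was not called (-1.51, adjusted p = 0.0837).

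**Figure D4:**
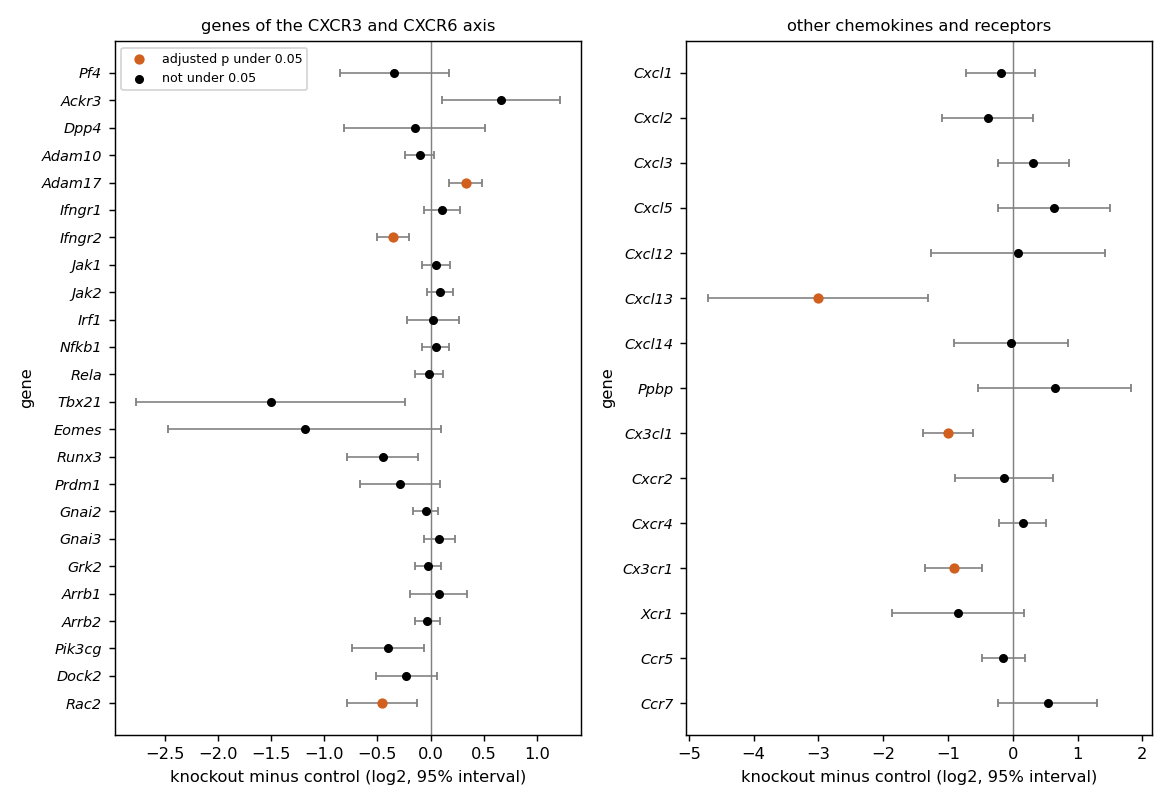
Log2 difference between knockout and control tumors with 95% intervals (limma), for the genes of the CXCR3 and CXCR6 axis (left) and for other chemokines and receptors (right), leaving out 1 gene and those under 10 normalized counts in every tumor. Orange points have an adjusted p under 0.05: *Adam17* to the right of 0, and *Ifngr2*, *Rac2*, *Cxcl13*, *Cx3cl1* and *Cx3cr1* to the left.

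Among 19 other chemokines and receptors of the CXC, CX3C and lymphocyte-attracting groups, 16 were tested, with 3 called lower, against 12.9% of all genes tested, and 0 higher, and a median log2 difference of -0.08. *Cxcl13*, which draws B cells through CXCR5, was lower (control 29.7 to 174, knockout 0 to 169, log2 difference -3.01, adjusted p = 0.0127). *Cx3cl1*, like *Cxcl16* a membrane-bound chemokine, was lower without overlap between the groups (control 183 to 306, knockout 80.2 to 155, log2 difference -1.003, adjusted p = 0.000783). Its receptor *Cx3cr1*, found on monocytes and macrophages, fell by 0.92 (adjusted p = 0.00463). The neutrophil-attracting *Cxcl1*, *Cxcl2*, *Cxcl3* and *Cxcl5* lay between -0.39 and 0.63 and were not called.

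Among 20 other interferon gamma-inducible genes, 4 were called lower (12.9% of all genes tested) and 0 higher in knockout tumors, with a median log2 difference of -0.30 against -2.03 for *Cxcl9* and -1.31 for *Cxcl10*. Those called were *Ido1* (-1.98, adjusted p = 0.0254), *Psmb9* (-0.52, adjusted p = 0.0178), *Igtp* (-0.55, adjusted p = 0.0433) and *Irf8* (-0.41, adjusted p = 0.00673), named here because they are all that passed. Without control tumor 1 the call of *Irf8* remained (adjusted p = 0.0286) and those of the other 3 were lost, with adjusted p-values from 0.0718 to 0.140, where 10.4% of all genes were called lower.

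Likeness between the genes was described on deviations of each tumor from its group mean, so that the difference between groups does not enter. All values are across the same 15 tumors and libraries, which share cell mixture and depth, and Pearson's r is given as a description. *Cxcl9* went with *Cxcl10* (r = 0.79) and *Cxcr3* (r = 0.81). *Cxcr3* went with *Cxcr6* (r = 0.83), and *Cxcr6* with *Cxcl11* (r = 0.85). *Cxcl16* went less with *Cxcl9* (r = 0.47) and *Cxcl10* (r = 0.44) than with its receptor *Cxcr6* (r = 0.68) or with *Cxcr3* (r = 0.77). The T cell list went with *Cxcl9* (r = 0.88), *Cxcr3* (r = 0.89), *Cxcl10* (r = 0.73) and *Cxcr6* (r = 0.71). The NK cell list went with the same genes at similar values, 0.88, 0.85, 0.75 and 0.70. The endothelial list went with *Cxcl16* (r = 0.74) and *Cxcr3* (r = 0.70). *Cxcr3* also went with the dendritic cell list (r = 0.91) and the interferon gamma response list (r = 0.90). The macrophage list went with *Cxcl9* at r = 0.46 and with *Cxcr3*, *Cxcr6*, *Cxcl11* and *Cxcl16* at -0.06 to 0.07.

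**Figure D5:**
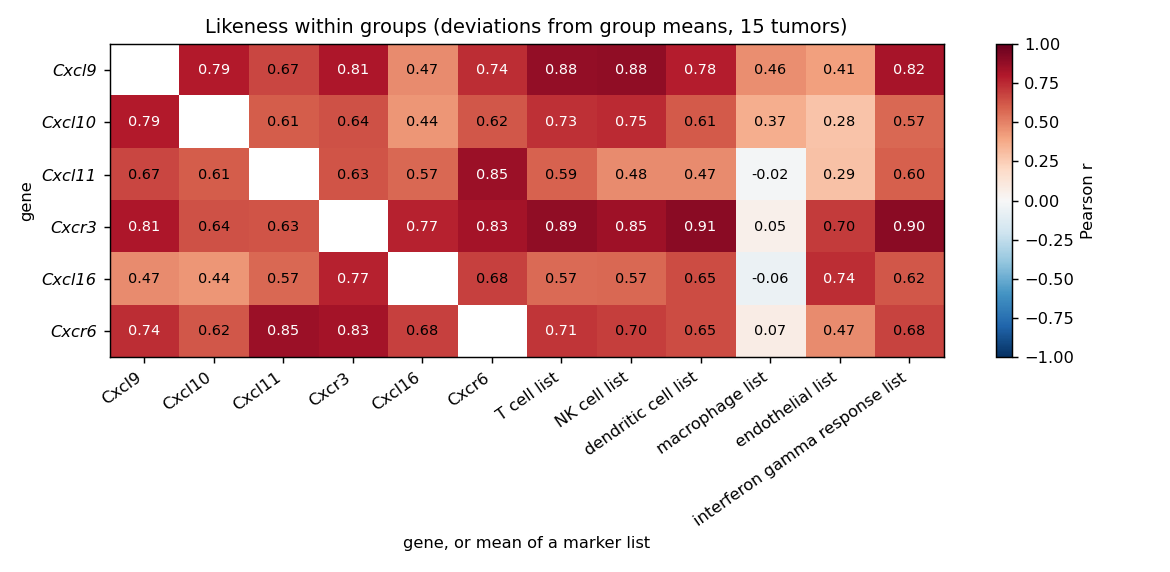
Pearson's r between each of the 6 genes (rows) and the other 5 genes or the mean of a marker list (columns), over deviations of the 15 tumors from their group means on the log2 scale. In the T cell column *Cxcr3* (0.89) and *Cxcl9* (0.88) are the highest, and the macrophage column is palest, from -0.06 to 0.46.

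Over all 16494 genes with a mean of at least 10, the 3 genes most like each of the 6 were picked by r. For *Cxcl9* they were *Serpina3g* (0.92), *Gm4759* (0.92) and *Cd3g* (0.91), the CD3 gamma chain. For *Cxcl10* they included *Slamf7* (0.91) and *Ncf1* (0.85). For *Cxcr3* they were *Itgae* (0.94), the integrin of tissue-resident T cells, the interferon-inducible GTPase gene *Gbp4* (0.94) and *Lat* (0.92), the T cell receptor adaptor. For *Cxcr6* they were *Gbp10* (0.86), *Ikzf2* (0.86) and *Cxcl11* (0.85). *Cxcl11* was most like *Gm22154* (0.88), *Cxcr6* (0.85) and *Ap4m1* (0.82), and *Cxcl16* was most like *Ptp4a3* (0.94), *Pkib* (0.88) and *Icam2* (0.88). Without control tumor 1 these r stayed between 0.77 and 0.94.

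The genes next to the 6 on the chromosome were also examined. On chromosome 5, *Sdad1*, on the other side of *Cxcl9*, was at -0.10 (adjusted p = 0.372) and *Nup54*, beyond *Cxcl11*, at 0.07 (adjusted p = 0.463). *Art3*, on the opposite strand, overlaps *Cxcl10* and *Cxcl11* and was at -0.45 (467 normalized counts on average in control and 341 in knockout tumors, adjusted p = 0.0526). *Zmynd15*, on the opposite strand over *Cxcl16*, was lower (-0.60, adjusted p = 0.0205), although *Cxcl16* itself was at -0.18. *Fyco1*, on the opposite strand over *Cxcr6*, was at -0.21 (adjusted p = 0.203) with a mean of 993 in control tumors, far above *Cxcr6*. Whether counting used the strand is not given in the sources used here, so reads of *Cxcl10*, *Cxcl11*, *Cxcl16* and *Cxcr6* could not be fully told apart from those of these partners. Near *Cxcr6*, the chemokine receptor genes *Ccr9* (-0.37, adjusted p = 0.430) and *Xcr1* (-0.84, adjusted p = 0.240) were not called. Around *Cxcr3*, *Ogt* (0.08, adjusted p = 0.498) and *Nhsl2* (0.06, adjusted p = 0.898) were not called, and beside *Cxcl16*, *Med11* was at 0.01 and *Tm4sf5* at -0.20.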

How the data were processed

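Tumor RNA was sequenced by the authors, who aligned reads to mm10 (TopHat2), counted them per gene (HTSeq) and scaled them with DESeq. The deposited values are read counts divided by a size factor per tumor, a normalized signal rounded to 0.1. The whole reads behind them were recovered (100% of values up to 8000 whole within 0.1 normalized counts). Genes at 0 in every tumor (29) were left out, and 18250 were tested with limma 3.58.1 (trend) on log2(deposited normalized signal + 1) in R 4.3.3, with Benjamini-Hochberg adjustment over all of them, for 10 knockout against 5 control tumors and for 3 groups. Single values were tested with two-sided exact permutation tests. edgeR 4.0.16 and DESeq2 1.42.0 on recovered reads, other scalings, pseudocounts of 0.1 and 5 and leaving out each tumor were alternatives. Scripts were tested on simulated data. Adjusted p-values across genes are from limma unless another tool is named, and p-values measure the spread between tumors. The genes and lists were chosen with earlier results of these data known. Named were the 6 genes, axis and other chemokine genes past the threshold against control, interferon gamma signaling genes, the 3 genes most like each, and chromosomal neighbors; other genes were named after their values were seen. Depth of 32924414 to 49099168 reads per tumor leaves counting error as a visible part of the spread for the genes of few reads, *Cxcl11*, *Cxcr3* and *Cxcr6*. Values of 2 genes that this rule names are not reported here.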

Additional observations from a re-analysis of the deposited data

Results flagged for a closer look

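Among 18 sets of 5 tumors (6 genes in 3 groups), Dixon's gap at its 95% level flagged control tumor 1 for *Cxcl9* and *Cxcl11*. *Cxcl9* was at 1290.5 normalized counts there against 127.7 to 301.3 in the other control tumors, and *Cxcl11* at 75.4 against 12.3 to 25.8. The gap was taken on normalized counts, whereas the tests used log2 values, on which high values lie closer together. For normally distributed values chance flags about 1 in 20 such sets, or 0.9 of 18. Normalized counts need not be distributed so.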

How the results depend on the processing

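The 6 genes kept their direction against the control in both clones together under all alternatives, and *Cxcr6* lost its call in 2 of them, without control tumor 1 or 5. *Cxcr3* relative to T cell genes, near 0 (0.05), changed sign with a pseudocount of 5 (-0.061), in clone 18 alone (-0.059), against NK cell genes (-0.49), without control tumor 4 (-0.088) and without tumor 9 (-0.03). *Cxcr6* relative to T cell genes turned from -0.34 to 0.12 against the CD3 subunit genes, an alternative chosen after seeing the data. *Cxcl9* relative to macrophage genes in clone 18 alone was -1.56 (exact permutation p = 0.0635). DESeq2 called 4 of the 6 genes in clone 4, adding *Cxcr3* (adjusted p = 0.0120) and *Cxcr6* (adjusted p = 0.0277). The share of all genes that DESeq2 called there was not computed. *Cxcr3* in clone 4 was also called with a pseudocount of 5 (adjusted p = 0.0486), and *Cxcl16* in clone 18 when genes with a mean under 10 were left out (adjusted p = 0.0499). Of 41 axis and other chemokine genes, those called higher numbered 2 in place of 1 with quantile normalization, edgeR or DESeq2 (both clones), and 4 with quantile normalization or 1 with limma without trend in place of 2 (clone 18), and between clones the 1 called lower was 0 with upper quartile scaling or without trend. Leaving out each tumor gave log2 differences of -2.35 to -1.52 for *Cxcl9*, -1.44 to -1.12 for *Cxcl10*, -1.003 to -0.37 for *Cxcl11*, -1.74 to -1.10 for *Cxcr3*, -0.29 to -0.12 for *Cxcl16* and -2.18 to -1.33 for *Cxcr6*. *Cxcl9* relative to *Cxcl10* ranged from -0.91 to -0.40 and passed without tumor 15 (-0.82, exact permutation p = 0.0465). *Cxcr3* relative to T cell genes ranged from -0.09 to 0.14. The 6 genes called numbered 3 to 4 (both clones), 1 to 3 (clone 4) and 2 to 5 (clone 18). Axis and other chemokine genes called higher numbered 1 to 3 (both clones), 1 to 2 (clone 4) and 0 to 3 (clone 18), and those called lower 4 to 9, 1 to 4 and 7 to 9, and 0 to 1 between clones. For the counts under alternatives, the share over all genes was computed only for both clones without control tumor 1 (10.4% called lower). How far these ranges follow the share over all genes was not tested. *Cxcl16* in clone 4 ranged from -0.17 to 0.0057, changing sign without control tumor 1. Between clones *Cxcl9* ranged from -0.25 to 0.42 and changed sign without tumor 9 (-0.059) or 12, and *Cxcl10* ranged from -0.12 to 0.25 and changed sign without tumor 6 (-0.072) or 12. The causes were not tested. No paired analysis was possible because the tumor numbers, 1 to 15, are not shared between groups.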
